A study of Mus musculus with 8 samples.

Results

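The expression of 10 genes of T-lineage signalling, Cd3d, Cd3e, Cd3g, Cd247, Lck, Zap70, Cd2, Cd5, Thy1 and Skap1, was examined in mouse pre-B leukaemia lines. The genes were found by gene name, with RefSeq identifiers for older names, and are 10 of 36315 genes with a probe on the array and of 18791 genes tested (8 of the 10 entered the test). The 8 one-colour microarrays fall into 4 groups of 2. These are 18-81 cells with miR-125b, 18-81 cells with miR-Neg, 70Z/3 cells with miR-125b and 70Z/3 cells with miR-Neg. The line 18-81 is a pre-B cell transformed by Abelson murine leukaemia virus, and 70Z/3 is a pre-B lymphoblast of a leukaemia. All groups were transfected with 10 nM of a synthetic duplex with a lipid reagent, the medium was changed after 8 h and total RNA was taken at 48 h. miR-Neg is a control duplex, so every sample was transfected. Replicates 1 and 2 come from 2 independent experiments. The study set out to find targets of miR-125b, and each kind of pre-B cell is represented by 1 line.

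In T cells, the antigen receptor signals through the CD3 chains and the zeta chain, whose cytoplasmic tails carry immunoreceptor tyrosine-based activation motifs. The kinase Lck phosphorylates these motifs, the kinase Zap70 docks on them, and adaptors pass the signal on. B-cell precursors use a related machinery built on Cd79a, Cd79b and the kinase Syk, and most of the genes described here are used as T-cell markers, although Cd5 also marks a subset of B cells.

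The duplex and the probes behind the results are shown first. The mature miR-125b of the mouse, from RefSeq, has its seed, bases 2 to 8, in capitals. It is encoded at chr9:41581940-41581961 and chr16:77646279-77646300 on the plus strand of GRCm38.p6.
mmu-miR-125b-5p: uCCCUGAGacccuaacuuguga
The complement of this seed (CTCAGGG) was found in 0 of the 13 probes of the 10 genes and in 245 of all 55681 probes (0.44%). A probe covers only 60 bases of a transcript, and the rest was not searched. The Cd3d and Cd247 probes lie in coding sequence, and the capitals mark the codons of an activation motif, with both of its tyrosine codons. A motif of this kind, in a reading frame without a stop, was present in 37 of all 55681 probes (0.0664%). On mm9, the Cd3d probe lies at chr9:44794171-44794402 on the plus strand and the Cd247 probe at chr1:167786567-167787585 on the plus strand. Both cross an exon junction, since a probe of 60 bases spans 232 and 1019 genomic bases there. The third probe is the one of Cd2 that spans 3180 bases, at chr3:101083802-101086981 on the minus strand, shown because it differs in size of response from the other Cd2 probe.
Cd3d probe: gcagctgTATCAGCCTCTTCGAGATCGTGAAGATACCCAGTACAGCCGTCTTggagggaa
Cd247 probe: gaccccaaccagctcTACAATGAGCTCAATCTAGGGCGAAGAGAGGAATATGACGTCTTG
Cd2 probe: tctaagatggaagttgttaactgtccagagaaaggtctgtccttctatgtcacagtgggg

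Levels are given as relative intensity, the background-subtracted probe intensity divided by the 75th percentile of its array. A gene was taken as measured in a line where its probe was well above background, by the scanner software's flag, on all 4 arrays of that line. On single arrays the flag was set for 38.0 to 45.1% of the probes, and the percentile lay between 337.7 and 725.1 intensity units, lowest on replicate 2 of 70Z/3 with miR-Neg. All 12 B-cell precursor markers, among them Cd79a, Pax5 and Ebf1, were well above background on all 8 arrays. Of 10 T-cell markers outside the genes described here, 2 were measured in both lines (Cd4 and Cd28), 1 in 70Z/3 only (Cd96) and 5 were dim on all arrays (Cd8a, Ptcra, Icos, Ctla4 and Cd27). Cd8b1 was above background on 2 arrays of 18-81 and Cd7 on 1. Of 9 NK-cell markers, 2 were measured in both lines (Nkg7 and Prf1), and 5 were dim on all arrays (Klrk1, Ncr1, Gzma, Gzmb and Eomes). These are bulk samples, in which fewer cells of a type and less RNA per cell cannot be told apart. The number of arrays, 2 per group, limits the precision of every value.

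Of the 10 genes, 5 were measured in both lines (Cd3d, Cd3e, Lck, Zap70 and Cd5), 2 in 18-81 only (Cd2 and Cd3g), 1 in 70Z/3 only (Skap1), and 2 in neither (Cd247 and Thy1). Among all genes tested, 77.8% were measured in both lines, 3.87% in 18-81 and on no 70Z/3 array, and 2.94% in 70Z/3 and on no 18-81 array. Cd247 and Thy1 did not enter the test, so these shares stand beside 5 of 8 genes and not 5 of 10. Of the 36315 genes with a probe, 14627 were measured in both lines. None of the 10 was measured on only some arrays of a line. Cd3d and Cd3e were thus above background in both lines without Cd247, and Skap1 and Cd2 were never above background in the same line.

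**Figure D1:**
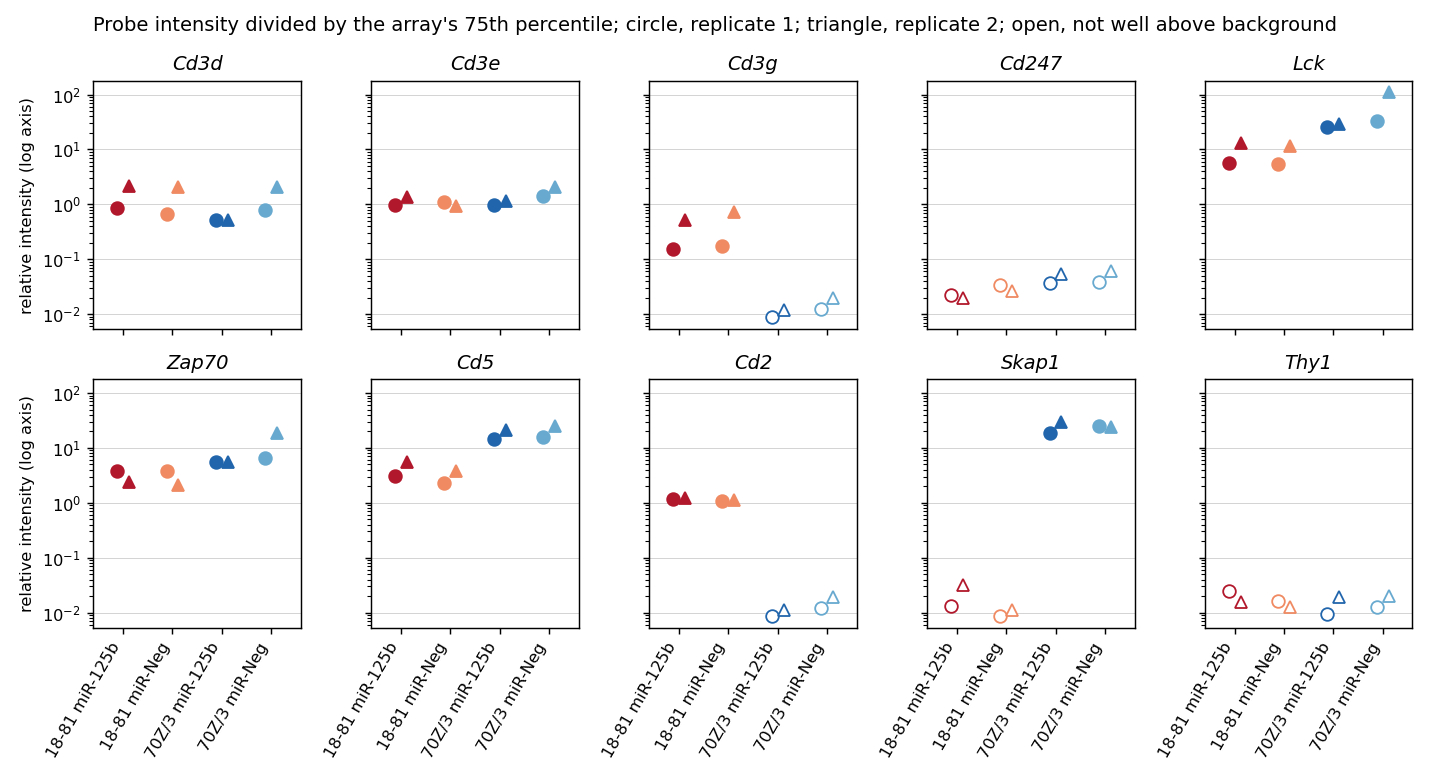
Relative intensity (log axis) of the 10 genes on every array, by group, with 1 point per array for the probe that stands for the gene. Filled points are well above background and open points are not. Cd3g and Cd2 are filled in 18-81 only, Skap1 in 70Z/3 only, and Cd247 and Thy1 nowhere.

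Among the CD3 chains, Cd3d encodes the delta chain. Its relative intensity was 0.850 and 2.20 in 18-81 with miR-125b and 0.678 and 2.09 in 18-81 with miR-Neg, in the order of replicates 1 and 2. In 70Z/3 it was 0.521 and 0.527 with miR-125b, against 0.783 and 2.04 with miR-Neg. The arrays of the lines overlapped, and the 3 high values were both replicates 2 of 18-81 and replicate 2 of 70Z/3 with miR-Neg. The difference between the lines, 18-81 minus 70Z/3 over both duplexes, was 0.65 ± 0.49 on the log2 scale (SE of the limma model, 95% interval −0.48 to 1.77, adjusted p = 0.365). It ranged from 0.24 to 1.06 when each array was left out in turn.

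Cd3e encodes the epsilon chain, which pairs with delta or gamma. It had a relative intensity of 0.968 and 1.37 in 18-81 with miR-125b and 1.09 and 0.935 in 18-81 with miR-Neg. It had 0.992 and 1.13 in 70Z/3 with miR-125b, against 1.43 and 2.10 in 70Z/3 with miR-Neg. The lines overlapped here too, and the highest value was again replicate 2 of 70Z/3 with miR-Neg. The line difference was −0.33 ± 0.23 (95% interval −0.85 to 0.19, limma, adjusted p = 0.321), so neither Cd3d nor Cd3e passed the test between the lines. Over left-out arrays the Cd3e value ranged from −0.47 to −0.19.

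Cd3g encodes the gamma chain. In 18-81 it had a relative intensity of 0.154 and 0.510 with miR-125b and of 0.174 and 0.729 with miR-Neg, all well above background. In 70Z/3 the probe read 0.00877 and 0.0117 with miR-125b and 0.0123 and 0.0200 with miR-Neg, and the flag was set on none of these 4 arrays. Cd3g was at least 7.12-fold higher in 18-81 than in 70Z/3 (limma, adjusted p = 0.000257). Here and below, such a bound sets the mean of the brighter line against, on each array of the dim line, the lowest signal among probes well above background or the probe's own signal where that was higher. That lowest signal is not a strict detection limit, since some probes above it were not flagged. On replicate 1 of 70Z/3 with miR-125b it was 0.0265, and the unflagged exon-spanning Cd247 probe read 0.0407. The words at least hold against that signal only. A gene that entered the test through 1 line alone had to differ, so its p-value adds little to the bound. With normexp background correction, whose offset of 50 lifts dim signals, the fitted Cd3g difference was 1.74 log2 units (adjusted p = 0.0102), smaller than the log2 bound of 2.83.

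Cd247 encodes the zeta chain, which carries most of the activation motifs of the receptor. Its exon-spanning probe read between 0.00876 and 0.0120 in 18-81 and between 0.0220 and 0.0407 in 70Z/3. Its other probe read between 0.0195 and 0.0333 in 18-81 and between 0.0366 and 0.0615 in 70Z/3. Neither was well above background on any of the 8 arrays, so no fold is given, and transcripts below this limit would not be detectable here.

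Cd3g and Cd3d are neighbours on chromosome 9 and are transcribed away from each other, from start sites 1355 bases apart on GRCm38.p6. Only Cd3d was measured in 70Z/3, so the 250 bases before each start site are shown, from RefSeq, each in the direction of its own gene. On either strand, capitals mark GGAAGT (a motif of Ets factors), CAGNTG (the E box of E proteins) and GGGCGG (a motif of Sp1-type factors). The Cd3g stretch is chr9:44980432-44980681 (minus strand) and the Cd3d stretch is chr9:44981536-44981785 (plus strand).
Cd3g upstream: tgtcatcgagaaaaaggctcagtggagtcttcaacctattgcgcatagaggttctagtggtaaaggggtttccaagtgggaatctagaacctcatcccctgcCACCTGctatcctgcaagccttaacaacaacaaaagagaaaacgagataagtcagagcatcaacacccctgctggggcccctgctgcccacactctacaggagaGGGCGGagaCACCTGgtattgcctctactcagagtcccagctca
Cd3d upstream: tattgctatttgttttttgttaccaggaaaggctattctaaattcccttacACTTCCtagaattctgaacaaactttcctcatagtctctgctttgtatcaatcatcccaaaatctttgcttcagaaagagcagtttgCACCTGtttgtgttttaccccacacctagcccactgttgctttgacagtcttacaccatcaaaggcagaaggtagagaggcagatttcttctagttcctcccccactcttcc
Counted from the start site, CAGNTG began at −148 and −35 before Cd3g and at −112 before Cd3d. GGAAGT was found once, at −199 before Cd3d, and GGGCGG once, at −44 before Cd3g. The same letters were present in 44.8% (CAGNTG), 19.7% (GGAAGT) and 32.7% (GGGCGG) of the 32851 windows of this length in the promoter table. The motifs were chosen after the windows were read, and a match is a description of the letters only.

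The kinases were measured in both lines, and both were lower in 18-81. Lck, the Src-family kinase that starts receptor signalling, had a relative intensity of 5.75 and 13.1 in 18-81 with miR-125b and 5.43 and 11.5 in 18-81 with miR-Neg. In 70Z/3 it had 25.9 and 29.0 with miR-125b and 33.0 and 110 with miR-Neg. Every 18-81 array lay below every 70Z/3 array. The line difference was −2.29 ± 0.46 on the log2 scale, a ratio of 0.204 (limma, adjusted p = 0.00594), and it was −2.39 within replicate 1 and −2.20 within replicate 2. At the threshold used, an adjusted p under 0.05, 31.7% of all genes tested differed between the lines, 15.5% higher and 16.2% lower in 18-81. That was 5962 genes, and 9030 with the replicate number as a block.

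Zap70, the kinase recruited to phosphorylated CD3 and zeta chains, had a relative intensity of 3.75 and 2.40 in 18-81 with miR-125b and 3.81 and 2.14 in 18-81 with miR-Neg. In 70Z/3 it had 5.52 and 5.51 with miR-125b and 6.55 and 18.4 with miR-Neg. The lines did not overlap, and replicate 2 of 70Z/3 with miR-Neg stood far above the other 70Z/3 arrays. The line difference was −1.41 ± 0.37, a ratio of 0.376 (limma, adjusted p = 0.0212). It was −0.67 within replicate 1 and −2.15 within replicate 2. The call was lost without either 18-81 replicate 2 or either 70Z/3 array with miR-125b. The values were −1.25 (adjusted p = 0.0592) without 18-81 miR-125b replicate 2, −1.20 (0.0713) without 18-81 miR-Neg replicate 2, and −1.41 without 70Z/3 miR-125b replicate 1 (0.0619) or replicate 2 (0.0621). Its second probe gave −1.48 ± 0.43 (adjusted p = 0.0324). On mm9 these probes lie at chr1:36839542-36839601 and chr1:36839315-36839374.

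Among the surface molecules, Cd5, a scavenger-receptor family protein that dampens antigen receptor signals, was lower in 18-81. Its relative intensity was 3.13 and 5.42 in 18-81 with miR-125b and 2.25 and 3.86 in 18-81 with miR-Neg, against 14.2 and 21.1 in 70Z/3 with miR-125b and 15.5 and 25.1 in 70Z/3 with miR-Neg. The lines did not overlap. The difference was −2.41 ± 0.31, a ratio of 0.189 (limma, adjusted p = 0.000504), with −2.49 within replicate 1 and −2.33 within replicate 2. Of the 5 genes measured in both lines, 3 had lines that did not overlap (Lck, Zap70 and Cd5, all lower in 18-81), against 36.8% of all genes tested for either direction. That share also counts genes measured in 1 line only, so it is not matched to these 5.

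Cd2 is an adhesion molecule of T and NK cells that is also found on mouse B cells. By its brighter probe it varied least among the 7 genes measured in 18-81 (SD of 0.06 on the log2 scale, n = 4). Its relative intensity there was 1.16 and 1.20 with miR-125b and 1.09 and 1.13 with miR-Neg. In 70Z/3 the probe read 0.00853 and 0.0113 with miR-125b and 0.0120 and 0.0190 with miR-Neg, with no array well above background. Cd2 was at least 25.7-fold higher in 18-81 (limma, adjusted p = 2.4e-07). The exon-spanning Cd2 probe shown above, printed in 10 spots per array, was also above background in 18-81 alone, at 0.225 and 0.149 with miR-125b and 0.226 and 0.138 with miR-Neg. By that probe Cd2 was at least 4.05-fold higher in 18-81. With normexp the fitted difference of the brighter probe was 3.27 log2 units, smaller than its log2 bound of 4.69.

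Thy1, a glycolipid-anchored surface protein of mouse thymocytes and T cells, was dim on all 8 arrays. It read between 0.0125 and 0.0250 in 18-81 and between 0.00962 and 0.0204 in 70Z/3, and no fold is given.

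Skap1, an adaptor that links the T-cell receptor to integrin adhesion, had the largest of the 3 bounds. It was not well above background in 18-81, where the probe read 0.0131 and 0.0314 with miR-125b and 0.00861 and 0.0111 with miR-Neg. In 70Z/3 it had a relative intensity of 18.7 and 29.2 with miR-125b and 25.5 and 24.3 with miR-Neg. Skap1 was at least 517-fold lower in 18-81 than in 70Z/3 (limma, adjusted p = 1.4e-07). With normexp the fitted difference was −7.67 log2 units, smaller in size than the log2 bound of 9.01. Its paralog Skap2 was measured in both lines and differed by −1.17 ± 0.19 (adjusted p = 0.00209).

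**Figure D2:**
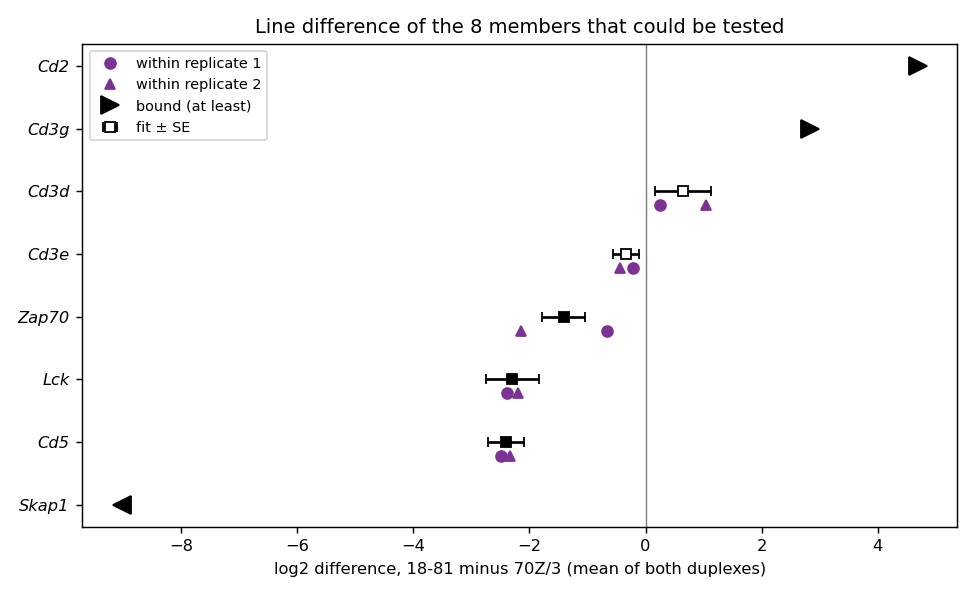
Log2 difference of 18-81 minus 70Z/3 over both duplexes for the 8 tested genes, with squares for the fit ± SE (filled at an adjusted p under 0.05), purple points for the difference within each replicate number, and triangles for bounds. Cd2 and Cd3g lie to the right, Zap70, Lck, Cd5 and Skap1 to the left, and Cd3d and Cd3e include 0 in their 95% intervals.

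The other genes of proximal T-cell receptor signalling also went in both directions between the lines. Of 28 such genes, 19 were measured in both lines, and 22 were tested. Of these, 5 were higher and 8 lower in 18-81 (limma, adjusted p under 0.05), with a median of −0.62 against 0.02 for all genes tested. Over the 19 measured in both lines, 4 were higher and 6 lower, with a median of −0.40, against 11.6% higher, 12.4% lower and a median of 0.01 among the 14627 genes measured in both lines. Rasgrp1, which activates Ras in lymphocytes, was measured in 18-81 only and was at least 13.2-fold higher there. The adaptor Sla2 was higher by 2.53 ± 0.50, the phosphatase Ptprc (CD45) by 1.40 ± 0.24 and the phosphatase Ptpn6 (SHP-1) by 1.25 ± 0.20. The size for Sla2 differed between the duplexes, but its interaction did not pass the test (limma, adjusted p = 0.940). Sla2 had 0.758 and 0.543 in 70Z/3 with miR-125b, against 0.120 and 0.122 with miR-Neg. In 18-81 it had 3.04 and 0.946 with miR-125b and 3.01 and 0.786 with miR-Neg. Ubash3a, a suppressor of T-cell receptor signalling, was measured in 70Z/3 only and was at least 13.0-fold lower in 18-81. The adaptor Sit1 was at −3.74 ± 0.32, the phosphatase Ptpn22 at −3.72 ± 0.45 and the phosphatase Ubash3b at −2.93 ± 0.21. Lat, the adaptor phosphorylated by Zap70, was at −2.80 ± 0.34 (adjusted p = 0.000341), and is named after its values were seen. Fyb, Themis and Txk were dim on all 8 arrays.

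Of 10 paralogs of the genes described here, 6 were tested, and 3 were higher and 1 lower in 18-81 (2 and 1 of the 5 measured in both lines). Among all genes measured in both lines, 11.6% were higher and 12.4% lower. The Fc receptor gamma chain Fcer1g, a relative of the zeta chain, was higher by 6.22 ± 0.39 (adjusted p = 6.3e-06). It had a relative intensity between 6.66 and 13.1 in 18-81 and between 0.0800 and 0.206 in 70Z/3, above background on all arrays. The Src-family kinase Fgr was measured in 18-81 only and was at least 35.6-fold higher there. Cd6, a relative of Cd5, was higher by 2.09 ± 0.24. Syk, the relative of Zap70, was measured in both lines, between 0.653 and 10.1 in 18-81 and between 4.97 and 10.7 in 70Z/3. Cd5 and Cd6 thus differed in opposite directions between the lines, as did Lck and Fgr.

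Of 10 regulators of T-lineage identity, 7 were measured in both lines. Of these 7, 4 were lower in 18-81, 0 were higher and 3 did not pass the test (limma), with a median of −0.81. The shares of all genes measured in both lines were 12.4% lower and 11.6% higher. The B-cell precursor markers leaned the same way, with a median of −0.70. Tcf7 and Gata3, transcription factors of early T-cell development, were measured in 70Z/3 only, so they entered the test through that line, and were at least 45.0-fold and at least 12.5-fold lower in 18-81. Lef1 was at −1.56 ± 0.30 and the receptor Notch1 at −1.32 ± 0.37. Bcl11b, which commits precursors to the T lineage, was dim on all 8 arrays. Of the T-cell markers, Cd28 was at −6.40 ± 0.43 and Cd96 was at least 12.9-fold lower in 18-81. Cd8b1 passed the test as higher in 18-81, where only the 2 of its 4 arrays with miR-125b were above background. It entered the test through that group alone, so its call adds little and no fold is given. The summed relative intensity of the 10 T-cell markers ran from 4.27 to 5.02 in 18-81 with miR-125b and from 4.04 to 4.16 in 18-81 with miR-Neg. It ran from 14.8 to 29.4 in 70Z/3 with miR-125b and from 10.0 to 25.8 in 70Z/3 with miR-Neg. Most of that difference was Cd28, which had a relative intensity between 0.136 and 0.185 in 18-81 and between 6.03 and 25.4 in 70Z/3. Without Cd28, left out after its values were seen, the sum of the other 9 ran from 4.13 to 4.84 and from 3.85 to 4.00 in 18-81 with miR-125b and miR-Neg. In 70Z/3 with miR-125b and miR-Neg it ran from 4.04 to 4.14 and from 4.00 to 4.99, so the lines overlapped. Most of that remainder was Cd4, between 3.64 and 4.51 in 18-81 and between 3.28 and 3.92 in 70Z/3. The overlap thus says little about the dimmer markers. The summed NK-cell markers ran from 3.51 to 4.56 and from 3.45 to 3.91 in 18-81 with miR-125b and miR-Neg, against 10.5 to 10.5 and 9.78 to 16.7 in 70Z/3 with miR-125b and miR-Neg. Among them, Klrd1 was measured in 70Z/3 only and was at least 131-fold lower in 18-81. Without it, also left out after its values were seen, the sum of the other 8 ran from 3.43 to 4.51 in 18-81 and from 4.91 to 5.71 in 70Z/3. Whether the differences of Cd28, Cd96 and Klrd1 have a part in the line differences of Lck, Zap70, Cd5 and Skap1 was not tested.

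The remaining marker lists were read the same way. Of the 12 B-cell precursor markers, 2 were higher in 18-81 (among them Pax5 by 0.79 ± 0.25) and 6 lower, with Cd72 at −3.96 ± 0.34, the surrogate light chain gene Igll1 at −2.83 ± 0.34, Vpreb1 at −1.73 ± 0.28 and Cd79b at −1.04 ± 0.24. All 12 were measured in both lines, where 11.6% of all genes were higher and 12.4% lower in 18-81. Of 7 myeloid markers tested, 1 passed as higher in 18-81 (Fcgr3, above background on 3 of the 4 arrays of 70Z/3, so no fold is given). The 2 that passed as lower, Mpo and Lyz2, were dim on all 18-81 arrays. In 70Z/3 both were above background only on the 2 arrays with miR-125b. They entered the test through that group alone, so their calls add little and no fold is given. Of 2 erythroid markers tested, Epor was at least 18.8-fold higher in 18-81 and Klf1 was at −0.95 ± 0.22. Of 2 stromal markers tested, Sparc was lower in 18-81, by an amount that differed between the duplexes. It had a relative intensity of 0.169 and 0.129 in 18-81 with miR-125b and 0.153 and 0.105 in 18-81 with miR-Neg, against 19.0 and 41.5 in 70Z/3 with miR-125b and 0.783 and 1.62 in 70Z/3 with miR-Neg. The mean log2 difference between the lines was −7.57 with miR-125b and −3.15 with miR-Neg, and the interaction did not pass the test (limma, adjusted p = 0.652, 0.000243 unadjusted).

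**Figure D3:**
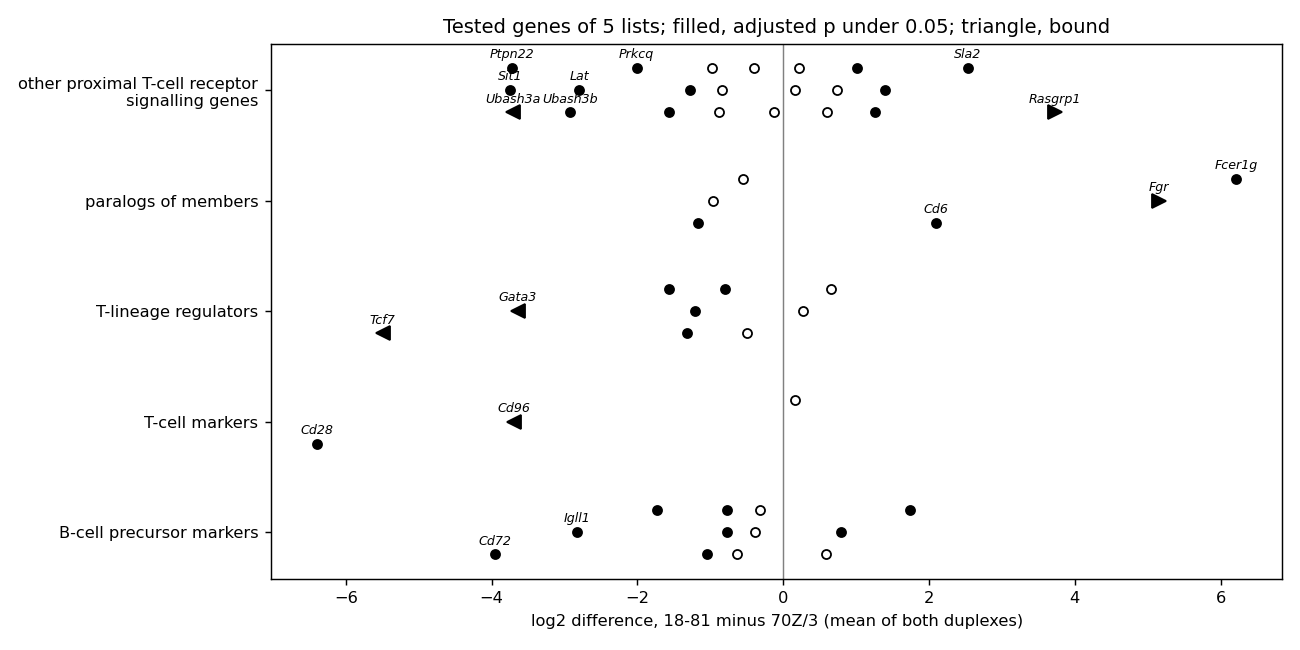
Log2 difference of 18-81 minus 70Z/3 over both duplexes for the tested genes of 5 lists, 1 point per gene (genes dim throughout 1 line and above background on part of the other, such as Cd8b1, are left out), filled at an adjusted p under 0.05, with triangles for bounds of genes measured in 1 line only. Receptor signalling genes lie on both sides of 0, while the T-lineage regulators past the threshold, Tcf7 and Gata3 with bounds and 4 others measured in both lines, lie to the left; names are given beyond 2 log2 units.

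The effect of miR-125b was compared with miR-Neg within each line. In 70Z/3, 0 of the 6 genes measured there passed the test, and 0% of all 18791 genes did (limma, 1104 at an unadjusted p under 0.05, none of them among the 10). When the replicate number was entered as a block, 0 genes passed and 3923 of the 18791 had an unadjusted p under 0.05, among them 3 of the 6 (Cd3d, Cd3e and Lck). With a separate block for each line, 1 gene passed and 3995 had an unadjusted p under 0.05. Among those were 4 of the 6, with Zap70 added. The median of all genes was −0.13 in this comparison, so the differences are given relative to it. Cd3d was at −1.14 ± 0.69, Lck at −1.0 ± 0.65, Zap70 at −0.86 ± 0.52 and Cd3e at −0.58 ± 0.32 (limma, adjusted p = 0.773 each). Their arrays with miR-125b lay below those with miR-Neg without overlap, which holds for 4 of the 6 genes measured there, against 22.7% of all genes tested (37.7% in either direction). Those shares also count genes that were not measured in 70Z/3. Cd5 was at −0.06 ± 0.44 and Skap1 at 0.04 ± 0.44, and both had groups that overlapped. Skap1 was at −0.09 before the median was taken off, so its sign depends on that step.

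These differences were larger in the pair of replicates 2. Before the median was taken off, Cd3d was at −0.59 in the pair of replicates 1 and at −1.95 in that of replicates 2, Lck at −0.35 and −1.92, Zap70 at −0.25 and −1.74, and Cd3e at −0.53 and −0.89. The array of 70Z/3 with miR-Neg replicate 2 held the highest 70Z/3 value of each of these 4 genes and also had the lowest 75th percentile of the 8 arrays. Without this array, and relative to the median of all genes, Cd3d was at −0.57, Lck at −0.25, Zap70 at −0.23 and Cd3e at −0.42. Without miR-Neg replicate 1 they were at −1.70, −1.74, −1.47 and −0.73. When the replicate number was entered as a block, adjusted p was 0.209 for Cd3d, 0.210 for Lck, 0.326 for Zap70 and 0.214 for Cd3e (limma), which made no call. In 70Z/3, array brightness and duplex cannot be told apart, since in both pairs the percentile was higher with miR-125b (701.5 against 512.8, and 504.0 against 337.7 with miR-Neg).

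In 18-81, 0 of the 7 genes measured there passed, and 0% of all genes did (limma, 230 at an unadjusted p under 0.05, none of them among these 7). Under the block, 0 passed and 531 had an unadjusted p under 0.05, among them Cd5 alone of the 7. Cd5 was at 0.46 ± 0.44 relative to the median of all genes (adjusted p = 1.0). Its pairs were alike, with 0.48 in replicates 1 and 0.49 in replicates 2, while the replicates lay further apart and the duplex groups overlapped. Cd2, by its brighter probe, was the 1 gene of the 7 whose groups did not overlap, and was at 0.06 ± 0.32, with pairs of 0.09 and 0.09. By its other probe the groups overlapped, at 0.225 and 0.149 with miR-125b against 0.226 and 0.138 with miR-Neg. Among all genes tested, which include genes not measured in 18-81, 13% did not overlap. Cd3d was at 0.17 ± 0.69, Cd3e at 0.16 ± 0.32, Lck at 0.11 ± 0.65, Zap70 at 0.04 ± 0.52 and Cd3g at −0.37 ± 0.75. For 6 of the 7 genes, all but Cd5, leaving out 1 array could turn the sign.

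The difference between the effects in the lines was tested as an interaction, and 0% of all genes passed (limma, 607 at an unadjusted p under 0.05, none of them among the 10). Under the block, 0 passed and 2425 of the 18791 had an unadjusted p under 0.05, among them 4 of the 5 genes measured in both lines, all but Zap70, at an adjusted p of 0.384 or more. With a separate block for each line, 0 passed and 2429 had an unadjusted p under 0.05, among them 3 of the 5 (Cd3d, Cd3e and Cd5). For the 5 genes measured in both lines, the effect in 18-81 minus that in 70Z/3, relative to the median of all genes, was 1.31 ± 0.97 for Cd3d, 1.11 ± 0.92 for Lck, 0.90 ± 0.74 for Zap70, 0.74 ± 0.45 for Cd3e and 0.51 ± 0.62 for Cd5 (adjusted p = 0.940 each). Without 70Z/3 miR-Neg replicate 2, these values were 0.74 for Cd3d, 0.36 for Lck, 0.28 for Zap70, 0.58 for Cd3e and 0.29 for Cd5. Over all left-out arrays they ranged from 0.59 to 2.03 for Cd3d, from 0.36 to 1.85 for Lck and from 0.28 to 1.52 for Zap70. Before the median was taken off, Cd3d, Lck and Cd5 were lower with miR-125b in both 70Z/3 pairs and higher in both 18-81 pairs, but the test of that difference was not passed. For Cd5 the 70Z/3 pairs were at −0.12 and −0.25, where the median of all genes was −0.13. The 95% intervals ran from −0.94 to 3.56 for Cd3d and from −1.02 to 3.23 for Lck and so hold both 0 and differences of several-fold.

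**Figure D4:**
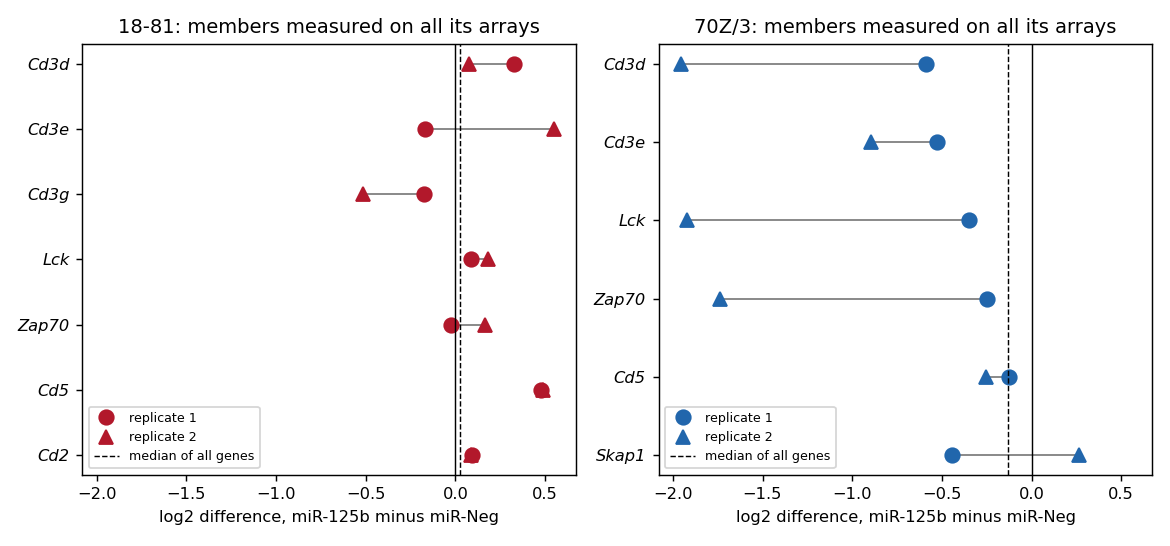
Log2 difference of miR-125b minus miR-Neg in each replicate pair, for the genes measured on all arrays of 18-81 (left) and of 70Z/3 (right), with the median of all genes as a dashed line. In 70Z/3 the pairs of replicates 2 lie near −2 for Cd3d and Lck, while in 18-81 the pairs lie between −0.52 and 0.55.

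In 18-81, by the probe that stands for each gene, the replicates of a group lay further apart than the duplexes for 5 of the 7 genes measured (Cd3d, Cd3g, Lck, Zap70 and Cd5). Replicate 2 minus replicate 1 was 1.37 with miR-125b and 1.62 with miR-Neg for Cd3d, 1.73 and 2.07 for Cd3g, and 1.19 and 1.09 for Lck. For Cd5 it was 0.79 and 0.78, and for Zap70 it was −0.64 and −0.83. By its brighter probe, Cd2 was nearly the same in both replicates, with 0.05 and 0.05. Its other probe was lower in replicate 2. It had a relative intensity of 0.225 and 0.149 with miR-125b and 0.226 and 0.138 with miR-Neg, in replicates 1 and 2. Over all genes tested, the median size of this difference was 0.46 with miR-125b and 0.42 with miR-Neg. Cd3d, Cd3g, Lck and Cd5 were thus all higher in replicate 2 of 18-81 under both duplexes while Zap70 was lower, and the brighter Cd2 probe differed little. Experiment, slide row and array brightness cannot be told apart here. The row followed the replicate number, and the 75th percentile in 18-81 was lower in replicate 2. It was 568.6 against 725.1 with miR-125b and 575.3 against 709.5 with miR-Neg. In 70Z/3 the differences of Cd3d, Lck and Zap70 were 0.02, 0.17 and 0.00 with miR-125b, against 1.38, 1.74 and 1.49 with miR-Neg. With 1 array per group and experiment, no test of the experiment within a group was made.

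**Figure D5:**
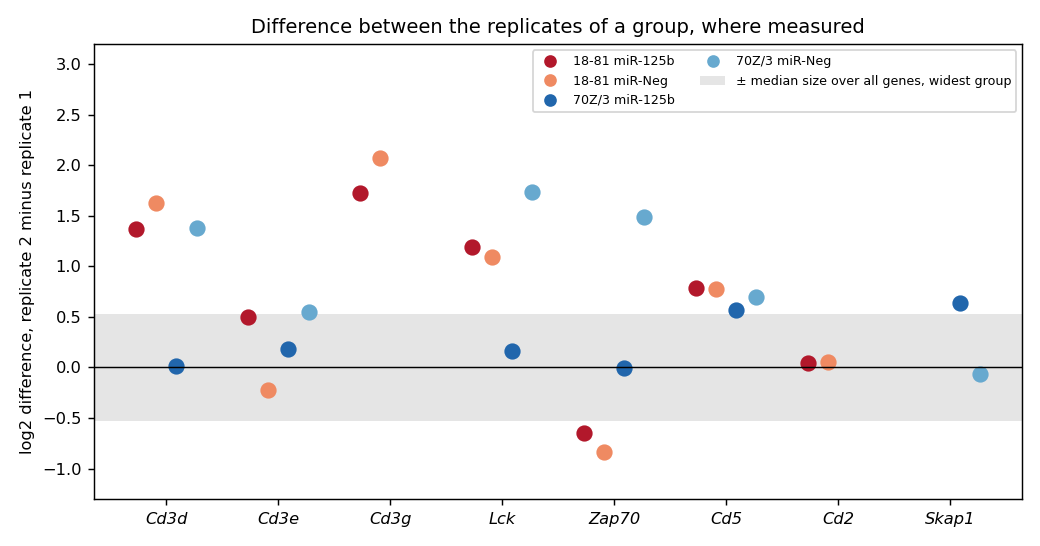
Log2 difference of replicate 2 minus replicate 1 within each group, shown where the gene was measured on all arrays of the line. The grey band is the median size over all genes in the group where it was widest (0.53), and Cd3d, Cd3g, Lck and Cd5 in 18-81 lie above it while Zap70 in 18-81 lies below it.

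The genes whose pattern over the 8 arrays was most like each of these were listed by Pearson's r of the log2 values, as a description, since the arrays share lines and experiments. For Cd3d they were Pkib (0.997), Ngdn (0.991) and the cell cycle kinase Cdk1 (0.990). For Zap70 they were Cdkn3 (0.989), Cnnm4 (0.988) and Tmem19 (0.988). For Cd3e the nearest was Uhrf1 (0.977), followed by a pair of intergenic noncoding RNA probes. For Cd5 they included 1810059H22Rik (0.997) and Kars (0.996), and for Lck 1700066M21Rik (0.994). For Cd3g, Cd2 and Skap1, which were bright in 1 line only, the nearest had r of 0.998 or more, among them the chemokine receptor gene Cxcr5 for Cd3g (0.999), Arhgdig for Cd2 and Efr3b for Skap1 (0.999). For these 3 genes the 8 arrays form 1 bright and 1 dim cluster, by line.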

How the data were processed

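The intensity values were deposited by the authors as scanner files of 8 one-colour Agilent 8x60K arrays. Per the file headers, they were extracted with Agilent Feature Extraction 10.7.3.1, background-subtracted and detrended within the array, with probe positions on mm9, and all arrays lay on 1 slide whose row follows the replicate number. The authors' deposited series table gives linear intensity after a normalization between arrays by a method not given in the sources used here, and served as an alternative.

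From the processed intensity, control spots and outlier spots were left out, spots of a probe were averaged, and log2 values minus the array's 75th percentile over 59305 non-control spots were taken. Probes were named through RefSeq identifiers and symbols, and the brightest probe stood for a gene. A gene was tested where the scanner software flagged that probe as above background on every array of 1 or more groups. limma 3.58.1 in R 4.3.3 fitted 4 group means to 8 arrays, with Benjamini-Hochberg adjustment over 18791 genes, and was tested on simulated data. Named genes were the 10 members and, from each list, up to 4 per direction with the largest difference past the threshold, and the 3 tested genes with the highest r per member. The members and lists were chosen with earlier results of these data known.

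Same-numbered replicates deviated together (r between 0.374 and 0.648 over 6 pairs of groups), and the design names 2 independent experiments, so the numbers pair the samples. The block is an alternative, and SEs, intervals and p-values given without mention of it come from the fit without the block. They are therefore not the precision of a paired fit. With the block, the SE was 0.17 in place of 0.44 for Cd5 in 18-81 and 0.36 in place of 0.65 for Lck in 70Z/3. For Zap70 in 70Z/3 it was 0.55 in place of 0.52, and 0.37 with a separate block for each line. Alternatives were background correction, normalization, filters, probe choice, an intensity trend, the block, each line alone and leaving out each array. The erythroid gene Hbb-b1 was not analysed here, and a few genes of the lists enter the counts but are not reported here.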

Additional observations from a re-analysis of the deposited data

How the results depend on the processing

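Between the lines, the directions of all 8 tested genes held under all 9 other settings and each left-out array, and the calls held except that of Zap70, which was lost without 4 of the arrays in turn (−1.78 to −1.04 over all 8). Cd2, Cd3g and Skap1 entered the test through 1 line alone, so for them a direction or call that held adds little. The block raised the genes past the threshold to 9030, while leaving out arrays gave 4567 to 5710. In 70Z/3, normexp and the block within each line gave 1 gene past the threshold each, and left-out arrays 0 to 2, with 0 of the 10 genes throughout. Left-out arrays gave 0 to 9 genes in 18-81 and 0 to 5 for the interaction, again without any of the 10. Relative to the median of all genes, Cd5 in 70Z/3 turned to 0.024 with normexp, 0.030 with quantile normalization, 0.035 with the deposited table and 0.20 without a filter, and ranged from −0.27 to 0.17 over left-out arrays. Skap1 ranged from −0.21 to 0.30. In 18-81, Zap70 turned to −0.022 with the mean of its probes. Over left-out arrays, the 18-81 values ran from −0.52 to 0.87 for Cd3d, −0.059 to 0.39 for Cd3e, −1.29 to 0.55 for Cd3g, −0.39 to 0.58 for Lck, −0.49 to 0.58 for Zap70 and −0.032 to 0.15 for Cd2. The cause of these turns was not tested. Between the lines the block changed no call of the 10 genes and added 8 to the 41 calls among the genes of the other lists, with 0 lost. A percentile over probes detected on all arrays, and every probe tested on its own, were added after seeing the data. Dim signals limit Cd247 and Thy1 in both lines, Cd2 and Cd3g in 70Z/3 and Skap1 in 18-81.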
